A study of Homo sapiens with 4 samples.

Results

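The genes described here are 37 genes of cholesterol and fatty acid synthesis, chosen by name from the 58825 genes of the deposited table. They comprise 18 enzymes of the sterol branch, 14 enzymes of the fatty acid branch and 5 genes of their shared control and sterol transport. They were read in 4 RNA-seq libraries of HaCaT, an immortalized keratinocyte line of human skin. The Lnc-DC knockdown group (2 libraries) received lentivirus with shlnc-DC, a hairpin that targets the noncoding transcript lnc-DC, and the control group (2 libraries) received lentivirus with shNC. Both groups were grown in MEPICF500 medium with 1.2 mM calcium, a condition used to induce differentiation. The labels call the libraries biological replicates and do not say how many hairpin sequences or separate transductions stand behind them. Values are FPKM, fragment numbers scaled for transcript length and library total, so levels can be compared between genes per length.

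Cholesterol is built from acetyl-CoA by way of mevalonate, the isoprenoids and squalene, which is closed into the first sterol and then trimmed to cholesterol. Fatty acids start from the same acetyl-CoA, which is carboxylated, condensed into palmitate, and then elongated, desaturated and activated with coenzyme A. Both branches are under transcription factors named SREBP, which SCAP escorts out of the endoplasmic reticulum when sterols are scarce and INSIG proteins retain when sterols are plentiful; SREBF2 codes for the form that mainly serves the sterol genes and SREBF1 for the forms that mainly serve the fatty acid genes. In the epidermis, keratinocytes make cholesterol, fatty acids and ceramides themselves and secrete them as the lipids of the skin barrier.

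The targeted transcript and the libraries were checked first. WFDC21P (ENSG00000261040), the gene of lnc-DC, lies on the minus strand of chromosome 17 between 60083566 and 60091885 in GENCODE 29 (GRCh38). It had 0.09 and 0.29 FPKM in the knockdown libraries, against 2.15 and 2.76 FPKM in the control libraries, a 12.9-fold lower mean that missed the threshold (limma log2 difference -1.54, SE 0.188, adjusted p = 0.0715). The mean of WFDC21P reached the 1 FPKM needed for testing only in the control group. Of 7 keratinocyte markers 6 exceeded 1 FPKM, whereas KRT14, a defining basal keratin, did not exceed 0.35 FPKM. Summed keratinocyte markers stood at 247 and 266 FPKM in the knockdown libraries, against 444 and 460 FPKM in the control libraries, with most of the gap in KRT5 and with TP63 and LAMB3 overlapping. KRT15 had 9.24 and 8.71 FPKM in the knockdown libraries, against 30.31 and 33.0 FPKM in the control libraries. CDH1 and DSG3 were also lower in both knockdown libraries. Of 5 differentiation markers, KRT1 and LOR were listed at 0 in all 4 libraries and FLG did not exceed 0.64 FPKM, and the 5 summed to 17.3 and 16.6 FPKM in the knockdown libraries, against 20.3 and 21.9 FPKM in the control libraries. The lower sum came from IVL (3.84 and 4.23 FPKM in the knockdown libraries, against 8.48 and 9.99 FPKM in the control libraries), while KRT10 was slightly higher in the knockdown. Among lipid-making cells, 5 sebocyte markers summed to 0.27 and 0.16 FPKM in the knockdown libraries, against 0.56 and 0.53 FPKM in the control libraries, with MC5R, AWAT1 and AWAT2 at 0. Of 3 adipocyte markers ADIPOQ and CIDEC were at 0, and no adipocyte, fibroblast or melanocyte marker exceeded 0.61 FPKM. The share of all FPKM held by mitochondrial genes was 28.1% and 26.8% in the knockdown libraries, against 41.2% and 41.9% in the control libraries, and FPKM is relative to the library total. The part of these differences in the results below was not tested, except that mitochondrial genes were left out where stated. In bulk RNA, fewer cells of a type and less RNA per cell cannot be told apart.

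No member passed the test across all genes. With limma on log2(FPKM + 1) and Benjamini-Hochberg adjustment over the 12411 genes tested, an adjusted p under 0.05 was reached by 14 genes with higher and 17 with lower knockdown values. These are 0.113% and 0.137% of the genes tested, and quantile normalization gave 17 and 40. Of the 37 members, all of which were tested, 0 were called, and the smallest adjusted p was 0.0822 for SQLE. At an unadjusted p under 0.05, 10 members were higher and 3 lower, or 27.0% and 8.11%, against 14.8% and 8.00% of all genes tested. For 17 members both knockdown values lay above both control values and for 8 both lay below, or 45.9% and 21.6%, against 35.6% and 19.2% of all genes tested. In either direction that made 25 of 37 members without overlap, beside 54.8% of all genes tested. The members as a whole thus lay near the background for lower values. FADS2 passed the filter on low values only through the control group and ACACB only through the knockdown group.

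The stretches before the start sites of 6 members are printed because these genes carry much of what follows: 3 sterol enzymes with higher values in the knockdown, the regulator SREBF2, and the fatty acid genes with the highest levels, ACLY and SCD. The 6 were picked by hand and all hold the CCAAT box, as do 25 of the 33 members with a window. Members without it are named below. Each is the 250 bases before a RefSeq start site (GRCh38.p14), read 5′ to 3′ on the strand of the gene, and where a gene had several windows the one with the most matches was taken. Capitals mark CCAAT on either strand, the box bound by NF-Y, a usual partner of SREBP, and in SREBF2 also the other capitals, the classical sterol response element.
HMGCS1: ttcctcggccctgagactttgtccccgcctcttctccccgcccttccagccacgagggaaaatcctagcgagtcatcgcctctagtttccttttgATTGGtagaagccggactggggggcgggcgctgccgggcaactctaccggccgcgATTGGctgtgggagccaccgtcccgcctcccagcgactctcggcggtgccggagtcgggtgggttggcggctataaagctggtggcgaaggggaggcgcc
IDI1: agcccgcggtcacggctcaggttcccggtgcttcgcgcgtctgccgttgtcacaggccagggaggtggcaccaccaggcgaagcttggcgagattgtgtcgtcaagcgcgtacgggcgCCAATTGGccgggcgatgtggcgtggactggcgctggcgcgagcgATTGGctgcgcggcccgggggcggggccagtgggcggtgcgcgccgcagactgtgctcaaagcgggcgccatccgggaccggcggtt
DHCR7: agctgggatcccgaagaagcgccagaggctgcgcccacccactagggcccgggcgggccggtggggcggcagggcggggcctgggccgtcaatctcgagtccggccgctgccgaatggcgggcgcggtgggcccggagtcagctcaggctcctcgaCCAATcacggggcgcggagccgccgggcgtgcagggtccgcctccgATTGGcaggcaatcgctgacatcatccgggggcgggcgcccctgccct
SREBF2: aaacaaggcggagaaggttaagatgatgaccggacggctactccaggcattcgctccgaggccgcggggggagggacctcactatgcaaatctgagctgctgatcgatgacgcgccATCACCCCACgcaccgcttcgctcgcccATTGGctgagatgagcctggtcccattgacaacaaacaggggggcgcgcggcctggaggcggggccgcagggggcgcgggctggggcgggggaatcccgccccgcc
ACLY: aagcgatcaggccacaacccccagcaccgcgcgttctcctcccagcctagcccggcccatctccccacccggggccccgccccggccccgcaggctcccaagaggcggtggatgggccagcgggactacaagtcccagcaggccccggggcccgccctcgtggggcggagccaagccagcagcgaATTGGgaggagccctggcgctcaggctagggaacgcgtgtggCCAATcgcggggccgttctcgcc
SCD: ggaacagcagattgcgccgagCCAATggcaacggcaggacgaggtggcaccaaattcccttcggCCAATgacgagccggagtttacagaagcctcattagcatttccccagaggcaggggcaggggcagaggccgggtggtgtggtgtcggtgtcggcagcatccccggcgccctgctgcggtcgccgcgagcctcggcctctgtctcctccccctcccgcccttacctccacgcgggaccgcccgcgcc
These windows lie at chr5:43313413-43313662 (minus strand) for HMGCS1, chr10:1048887-1049136 (minus) for IDI1, chr11:71448394-71448643 (minus) for DHCR7, chr22:41832855-41833104 (plus) for SREBF2, chr17:41919023-41919272 (minus) for ACLY and chr10:100346983-100347232 (plus) for SCD. In IDI1 the first pair of boxes overlaps as CCAATTGG. The box nearest the start began 100 bases before it in HMGCS1, 87 in IDI1, 48 in DHCR7, 106 in SREBF2, 23 in ACLY and 186 in SCD.

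CCAAT was common before the start sites of both branches. RefSeq gave windows for 33 of the 37 members and none for ACAT2, FDFT1, SQLE and FASN. CCAAT stood in 29 of 48 member windows, or 60.4%, against 32.0% of all 35116 windows of the same length. Counted by gene, it was found for 13 of 15 sterol enzymes, 9 of 13 fatty acid enzymes and 3 of 5 regulators, against 37% of all 27305 genes. PMVK, CYP51A1, SREBF1, SCAP, FADS1, FADS2, ELOVL6 and ACSL4 had windows without it. Of these, PMVK, CYP51A1, ELOVL6 and ACSL4 had both knockdown values above both control values. SCAP, FADS1 and FADS2 had both below. GGGCGG, the core of a site for Sp1, stood in 81.2% of member windows against 42.6% of all windows. The exact classical sterol response element, as capitalized in SREBF2, was found for SREBF2 alone among the members and in 0.0342% of all windows. The looser form TCACNCCAC was found for SREBF2 and ACSL1 and in 0.883% of all windows. CACGTG, a box bound by basic helix-loop-helix factors, was found for SC5D, ELOVL5, INSIG1 and SCAP, in 10.4% of member windows and 6.34% of all windows. All motifs were searched on both strands, and the genes with and without CCAAT include members with higher and with lower values in the knockdown.

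HMGCS1 and IDI1 of the sterol branch held the largest differences of the members. Of its 18 enzymes 13 lay above 0 (11 with GC content and length removed, 12 under quantile normalization) on the log2 scale, with a median log2 fold change of 0.23, against a median of 0.09 and 61.4% above 0 over all genes tested. For 12 of the 18 (66.7%) both knockdown values lay above both control values, against 35.6% of all genes tested, and for 1 enzyme (5.56%) both lay below, against 19.2%. Summed over the branch, FPKM came to 290.9 and 331.8 in the knockdown libraries, against 238.4 and 252.4 in the control libraries. With mitochondrial genes left out and the rest rescaled, the median was 0.20, against 0.06 for all genes tested.

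At the entry of the branch, HMGCS1 and ACAT2 stood higher in both knockdown libraries. HMGCS1, the cytosolic synthase that makes HMG-CoA, had 20.54 and 26.08 FPKM in the knockdown libraries, against 13.84 and 9.41 FPKM in the control libraries. That is a 2.01-fold ratio of means and the largest log2 difference of any member (0.96, SE 0.222, limma adjusted p = 0.116). The gap between the groups was wider than the gap between the control libraries or between the knockdown libraries, but both pairs were spread. ACAT2, the cytosolic thiolase that joins acetyl-CoA units, had 20.61 and 24.96 FPKM in the knockdown libraries, against 14.96 and 17.30 FPKM in the control libraries (log2 difference 0.47, SE 0.146, adjusted p = 0.165). ACAT2 shares exons with TCP1 and SOD2 on the other strand, and whether reads were counted by strand is not given in the sources used here. The kinases MVK and PMVK and the decarboxylase MVD, which turn mevalonate into isopentenyl pyrophosphate, differed less. MVK averaged 4.47 ± 0.148 FPKM in the knockdown and 3.80 ± 0.0424 FPKM in the control libraries (SD, n = 2 each). PMVK averaged 11.5 ± 1.09 FPKM in the knockdown and 9.29 ± 0.0495 FPKM in the control libraries. MVD overlapped between the groups, at 3.19 ± 0.559 and 3.47 ± 0.0141 FPKM in knockdown and control libraries.

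In the isoprenoid steps, IDI1 stood apart from its neighbours. IDI1, which interconverts the isopentenyl pyrophosphates, had 15.34 and 23.48 FPKM in the knockdown libraries, against 9.94 and 10.75 FPKM in the control libraries (1.88-fold, log2 difference 0.82, SE 0.218, limma adjusted p = 0.136). Both knockdown values were above both control values, but they lay far apart, and the log2 difference was 0.53 without knockdown replicate 2 and up to 1.11 without another library. FDPS, which makes farnesyl pyrophosphate, had 32.26 and 35.23 FPKM in the knockdown libraries, against 25.60 and 29.05 FPKM in the control libraries. FDFT1, squalene synthase, overlapped fully, with 27.18 and 37.46 FPKM in the knockdown libraries and 31.25 and 38.48 FPKM in the control libraries. The level of FDFT1, which commits farnesyl units to sterols, was thus not separable between the groups at this spread.

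After squalene, SQLE gave the smallest adjusted p of all members. SQLE, squalene epoxidase, a rate-controlling enzyme of the late pathway, had 19.61 and 20.90 FPKM in the knockdown libraries, against 12.36 and 12.50 FPKM in the control libraries. The 1.63-fold ratio (log2 difference 0.66, SE 0.103, limma adjusted p = 0.0822) exceeded the spread within each group, and the adjusted p lay between 0.0617 and 0.285 over 13 alternative settings. CYP51A1, the lanosterol demethylase, had the highest mean level of the sterol enzymes over all 4 libraries, although FDFT1 was higher in both control libraries. It had 38.84 and 42.51 FPKM in the knockdown libraries, against 28.02 and 29.16 FPKM in the control libraries (1.42-fold, log2 difference 0.49, SE 0.108, adjusted p = 0.112). CYP51A1 shares exons with other annotated genes on the same strand, and 3 pseudogenes named after it reached 1.18 FPKM, so part of its reads is uncertain. DHCR7, which makes cholesterol from its last precursor on one route, had 21.52 and 25.57 FPKM in the knockdown libraries, against 17.81 and 16.17 FPKM in the control libraries (1.39-fold, log2 difference 0.44, SE 0.133, adjusted p = 0.156).

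TM7SF2, a sterol reductase, was the one sterol enzyme with both knockdown values below both control values. It had 1.10 and 1.43 FPKM in the knockdown libraries, against 1.9 and 2.15 FPKM in the control libraries (log2 difference -0.42, SE 0.156, limma adjusted p = 0.211). Its level was the lowest of the branch, and it shares exons with VPS51 on the same strand, so its value depends on how reads were divided. LBR, which codes for the other sterol reductase of the same step and is not a member, had 25.72 and 31.77 FPKM in the knockdown libraries and 25.52 and 23.97 FPKM in the control libraries. NSDHL, a sterol dehydrogenase, averaged 28.8 ± 2.40 FPKM in the knockdown and 23.3 ± 0.877 FPKM in the control libraries (SD, n = 2 each). LSS, which closes the ring of lanosterol, averaged 5.06 ± 0.0141 and 4.42 ± 0.113 FPKM in knockdown and control libraries. MSMO1, the sterol methyl oxidase, and SC5D, the lathosterol desaturase, had log2 differences of 0.11 and 0.10, which became -0.04 and -0.06 once the trend on GC content and length was removed. EBP, the sterol isomerase, overlapped between groups at 24.1 ± 1.24 FPKM in the knockdown and 25.0 ± 2.19 FPKM in the control libraries. HSD17B7, a keto reductase, averaged 2.15 ± 0.502 and 2.31 ± 0.0849 FPKM in knockdown and control libraries, and 2 pseudogenes named after it reached 1.40 FPKM, so its reads are uncertain. Across the 11 sterol enzymes with an unadjusted p of 0.05 or more, log2 differences ran between -0.12 and 0.30, with limma adjusted p between 0.224 and 0.818.

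**Figure D1:**
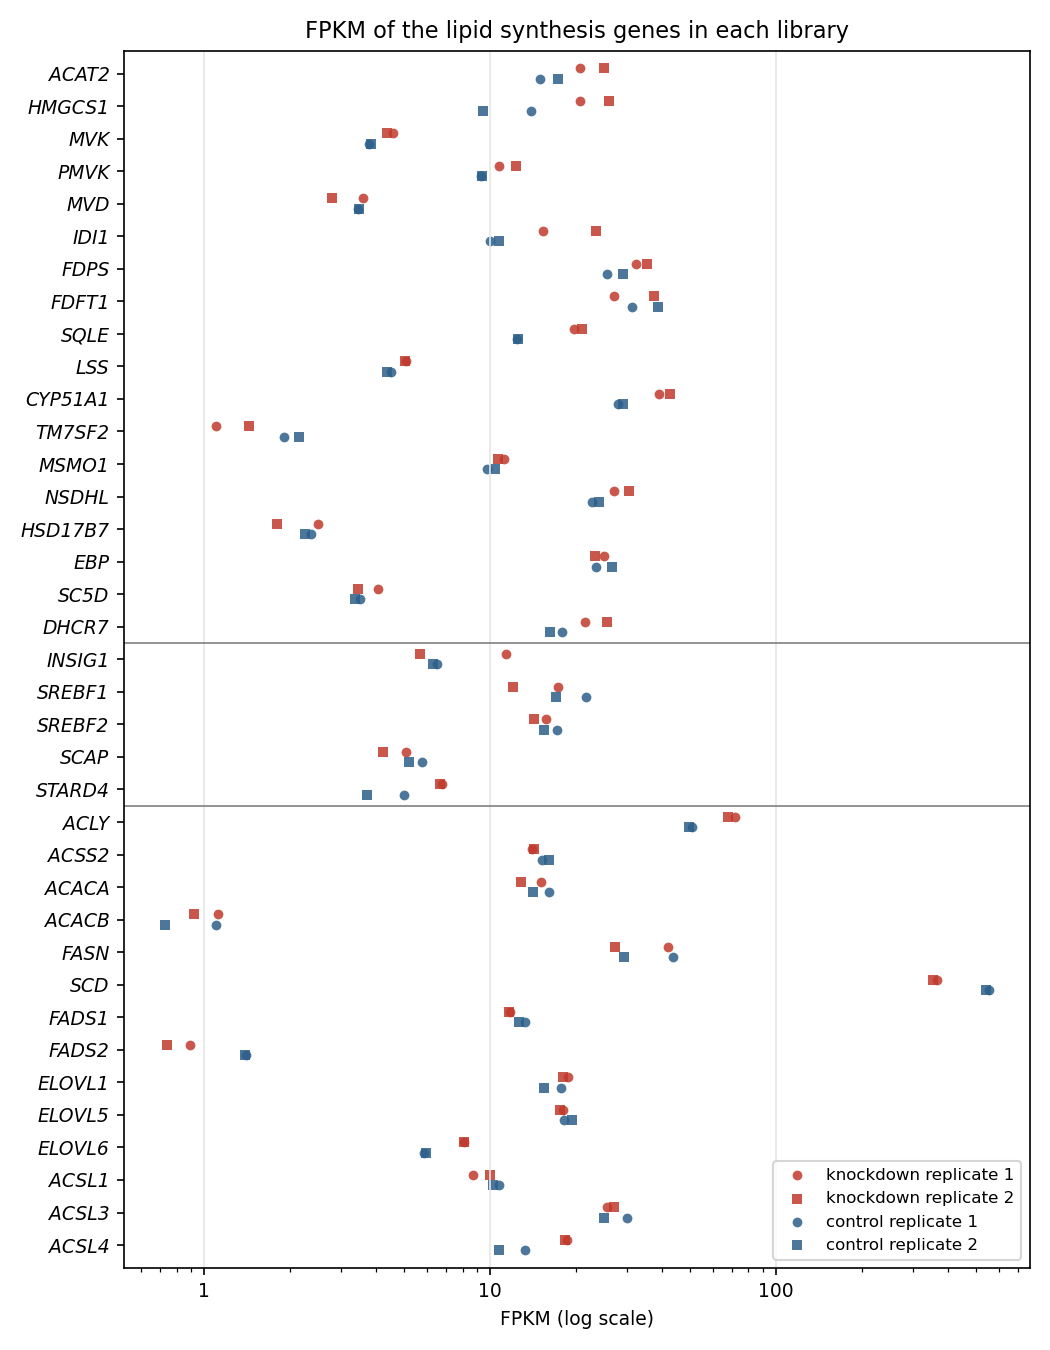
FPKM of the 37 genes in each library, in pathway order with the sterol branch at the top, regulators and transport in the middle and the fatty acid branch at the bottom; the axis is logarithmic, red marks stand for knockdown libraries and blue marks for control libraries, with a circle for replicate 1 and a square for replicate 2. SQLE and CYP51A1 show knockdown values to the right of both control values, SCD shows them to the left at 364.56 and 353.95 FPKM, and FASN shows the same split between replicate 1 and replicate 2 in both groups.

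The regulators gave no common direction. SREBF2, whose promoter holds the sterol response element printed above, had 15.70 and 14.17 FPKM in the knockdown libraries, against 17.09 and 15.42 FPKM in the control libraries (log2 difference -0.11, SE 0.118, limma adjusted p = 0.594). SREBF1 had 17.19 and 12 FPKM in the knockdown libraries, against 21.61 and 16.91 FPKM in the control libraries (log2 difference -0.39, SE 0.217, adjusted p = 0.355). For each of these genes the groups overlapped. In both groups the library numbered 1 was the higher one, and for each replicate number the knockdown value was the lower. With replicate number as a block the limma adjusted p was 0.363 for SREBF2 and 0.113 for SREBF1. INSIG1, the sterol-responsive retention protein and itself a target of SREBP, had 11.39 and 5.66 FPKM in the knockdown libraries, against 6.49 and 6.33 FPKM in the control libraries. The mean of INSIG1 was 1.33-fold higher in the knockdown, but 1 knockdown library lay below both control libraries, and without knockdown replicate 1 the log2 difference turned to -0.15, against 0.29 with all libraries (adjusted p = 0.603). SCAP, the escort protein, had 5.08 and 4.21 FPKM in the knockdown libraries, against 5.78 and 5.18 FPKM in the control libraries (log2 difference -0.20, SE 0.137, adjusted p = 0.436). STARD4, a carrier of sterol between membranes, had 6.77 and 6.69 FPKM in the knockdown libraries, against 4.99 and 3.71 FPKM in the control libraries (1.55-fold, log2 difference 0.54, SE 0.156, adjusted p = 0.151). Among the 5 genes of control and transport, STARD4 alone had both knockdown values above both control values, and SCAP alone had both below.

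The fatty acid branch held single genes that differed both ways. Of its 14 enzymes 5 (35.7%) lay above 0, against 61.4% of all genes tested, with a median log2 fold change of -0.08, against 0.09. Of the 14, 4 (28.6%) had both knockdown values above both control values while 6 (42.9%) had both below. Over all genes tested these shares were 35.6% and 19.2%. The 4 were ACLY, ELOVL6, ACSL4 and, at a log2 difference of only 0.15, ELOVL1. The 6 were SCD, FADS2, FADS1, ACSS2, ELOVL5 and ACSL1, of which the last 4 had log2 differences of only -0.13, -0.13, -0.07 and -0.15. For ELOVL5 the nearest values were 18.01 FPKM in the knockdown and 18.14 FPKM in the control libraries. Without control replicate 1 the median became 0.02 and 7 of 14 lay above 0, while it was -0.20 under quantile normalization, -0.17 with GC content and length removed and -0.16 with median centring. The median of all genes tested moved as well, to 0.12, 0.02, 0.02 and 0.01 in these settings, in the same order. Summed FPKM of the branch came to 618.5 and 588.5 in the knockdown libraries, against 790.1 and 750.4 in the control libraries. Most of that sum is SCD: without it the branch summed to 253.9 and 234.5 FPKM in the knockdown libraries, against 237.1 and 210.2 FPKM in the control libraries.

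SCD, the stearoyl-CoA desaturase that makes monounsaturated fatty acids, had the highest level of any member and ranked 49 among all 58825 genes by mean FPKM. It had 364.56 and 353.95 FPKM in the knockdown libraries, against 553.01 and 540.24 FPKM in the control libraries. The mean was 1.52-fold lower in the knockdown (log2 difference -0.60, SE 0.123, limma adjusted p = 0.105), with the groups well apart and the libraries of each group close together. Left-out libraries moved the log2 difference only between -0.63 and -0.58, and its adjusted p lay between 0.0709 and 0.342 over 13 alternative settings. SCD made up 58.9% and 60.1% of the summed FPKM of the branch in the knockdown libraries, against 70.0% and 72.0% in the control libraries. FADS2, the delta-6 desaturase of polyunsaturated fatty acids, had 0.89 and 0.74 FPKM in the knockdown libraries, against 1.40 and 1.39 FPKM in the control libraries (1.71-fold lower, log2 difference -0.40, SE 0.152, adjusted p = 0.217). FADS2 shares exons with FEN1 on its own strand and with FADS1 on the other, so at this low level its value is uncertain. FADS1, the delta-5 desaturase, had 11.69 and 11.61 FPKM in the knockdown libraries, against 13.20 and 12.57 FPKM in the control libraries (log2 difference -0.13, SE 0.102, adjusted p = 0.481).

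ACLY, ELOVL6 and ACSL4 had higher values in the knockdown. ACLY, which releases acetyl-CoA from citrate for both branches, had 71.71 and 67.94 FPKM in the knockdown libraries, against 50.81 and 49.43 FPKM in the control libraries (1.39-fold, log2 difference 0.47, SE 0.104, limma adjusted p = 0.112). ELOVL6, the elongase of palmitate, had 8.11 and 8.09 FPKM in the knockdown libraries, against 5.86 and 5.94 FPKM in the control libraries (1.37-fold, log2 difference 0.40, SE 0.104, adjusted p = 0.133). ACSL4, the acyl-CoA synthetase that prefers arachidonic acid, had 18.61 and 18.25 FPKM in the knockdown libraries, against 13.25 and 10.70 FPKM in the control libraries (1.54-fold, log2 difference 0.59, SE 0.136, adjusted p = 0.116). These 3 genes were higher in both knockdown libraries by more than the spread within either group, but none passed the adjusted threshold. ACSL4 shares exons with KCNE5 on the same strand.

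The committed steps of fatty acid synthesis could not be separated between the groups. FASN, fatty acid synthase, had 41.80 and 27.28 FPKM in the knockdown libraries, against 43.69 and 29.43 FPKM in the control libraries (log2 difference -0.08, SE 0.284, limma adjusted p = 0.882). In both groups the library numbered 1 was the higher one, and this gap was several times the difference between the groups. ACACA, the acetyl-CoA carboxylase of fatty acid synthesis, had 14.99 and 12.76 FPKM in the knockdown libraries, against 16.06 and 14.08 FPKM in the control libraries (log2 difference -0.11, SE 0.135, adjusted p = 0.647). ACACB, the mitochondrial-membrane carboxylase, averaged 1.02 ± 0.141 FPKM in the knockdown and 0.915 ± 0.262 FPKM in the control libraries (SD, n = 2 each). ACSS2, which makes acetyl-CoA from acetate, averaged 14.2 ± 0.148 and 15.6 ± 0.601 FPKM in knockdown and control libraries. ELOVL1, an elongase of very long chains, averaged 18.4 ± 0.509 FPKM in the knockdown and 16.5 ± 1.59 FPKM in the control libraries. ELOVL5, an elongase of polyunsaturated chains, averaged 17.8 ± 0.318 FPKM in the knockdown and 18.7 ± 0.778 FPKM in the control libraries. The remaining acyl-CoA synthetases were close between the groups as well. ACSL1 averaged 9.34 ± 0.940 FPKM in the knockdown and 10.4 ± 0.339 FPKM in the control libraries. ACSL3 averaged 26.3 ± 1.13 FPKM in the knockdown and 27.6 ± 3.58 FPKM in the control libraries. Across the 9 fatty acid enzymes with an unadjusted p of 0.05 or more, log2 differences ran between -0.15 and 0.15, with adjusted p between 0.481 and 0.882.

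**Figure D2:**
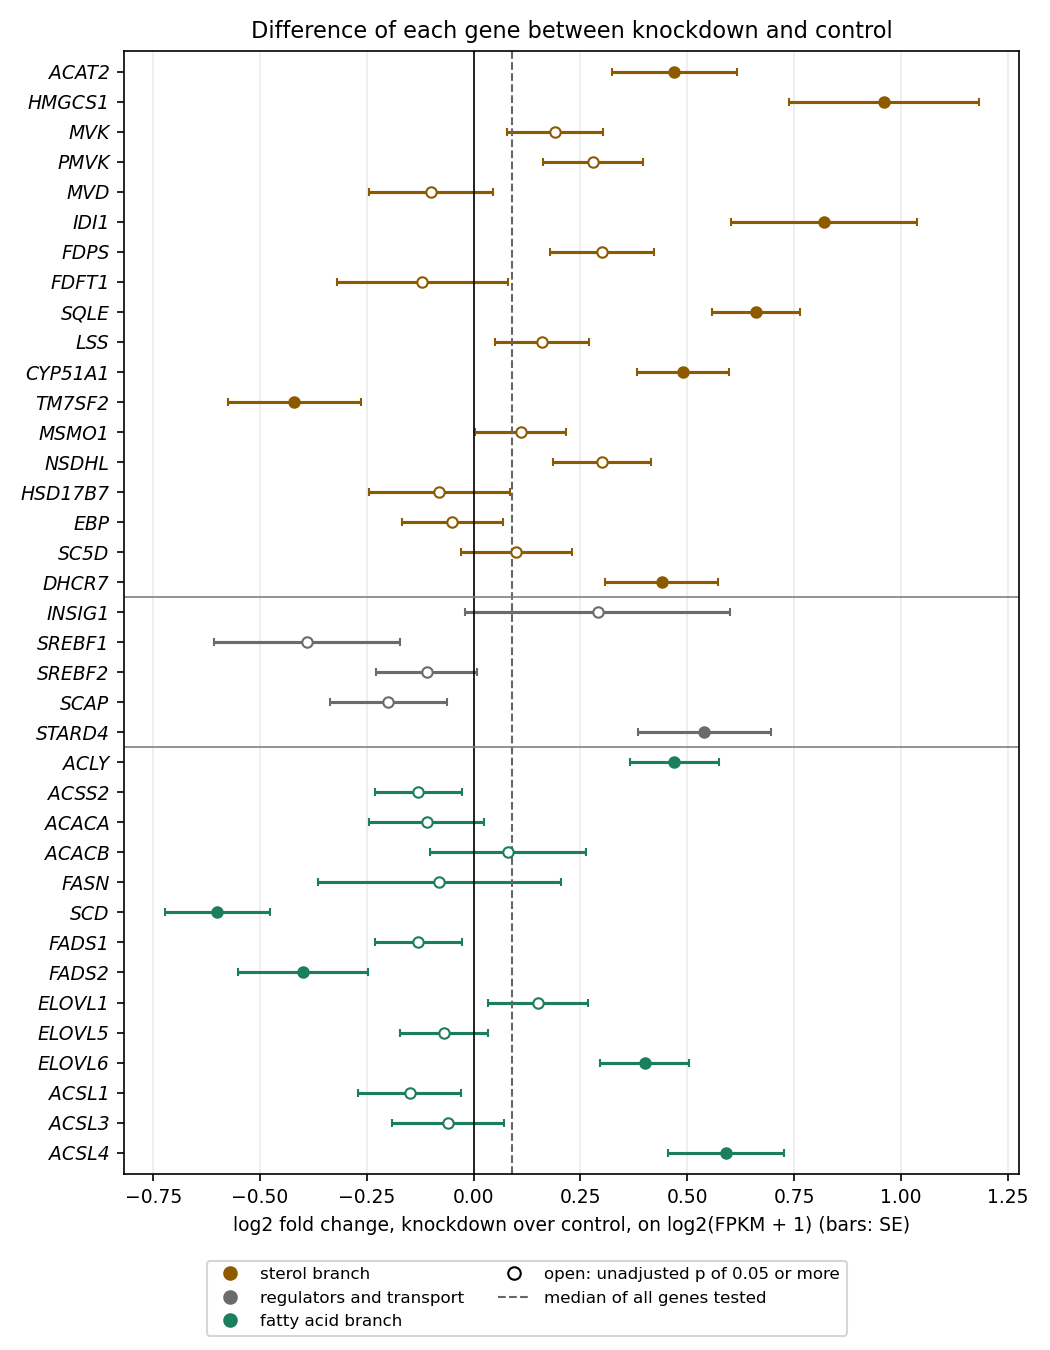
Log2 fold change of each gene, knockdown over control, on the log2(FPKM + 1) scale with its standard error, in pathway order; filled marks have an unadjusted limma p under 0.05, the solid line is 0 and the dashed line the median of all genes tested, 0.09. HMGCS1 at 0.96 and IDI1 at 0.82 lie farthest to the right, SCD at -0.60 farthest to the left, and no gene passed the adjusted threshold.

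Set side by side, the medians of the branches differed by 0.31 on the log2 scale, 0.23 for sterol and -0.08 for fatty acid enzymes. Each knockdown library was also set against each control library. The sterol median was then 0.18 to 0.31, while it was -0.13 between the knockdown libraries and -0.04 between the control libraries (replicate 1 minus replicate 2). The fatty acid median was -0.11 to 0.06, against 0.04 between the knockdown libraries and 0.06 between the control libraries. The median of all genes tested moved as well, between 0.02 and 0.15 over the 4 pairings and by 0.05 and 0.06 within the groups. In the pairing of knockdown replicate 1 with control replicate 2 the sterol median of 0.18 was close to the 0.15 of all genes, so relative to all genes the sterol shift was not larger than the gap between replicates in every pairing. The fatty acid shift was not separable from that gap either. The difference of the branch medians was 0.13 to 0.42 over the 4 pairings and -0.16 and -0.10 within the groups, so its smallest value was no larger than the gap between knockdown libraries. Without control replicate 1 it came to 0.17. Genes of a branch are not replicates, so these medians carry no p.

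**Figure D3:**
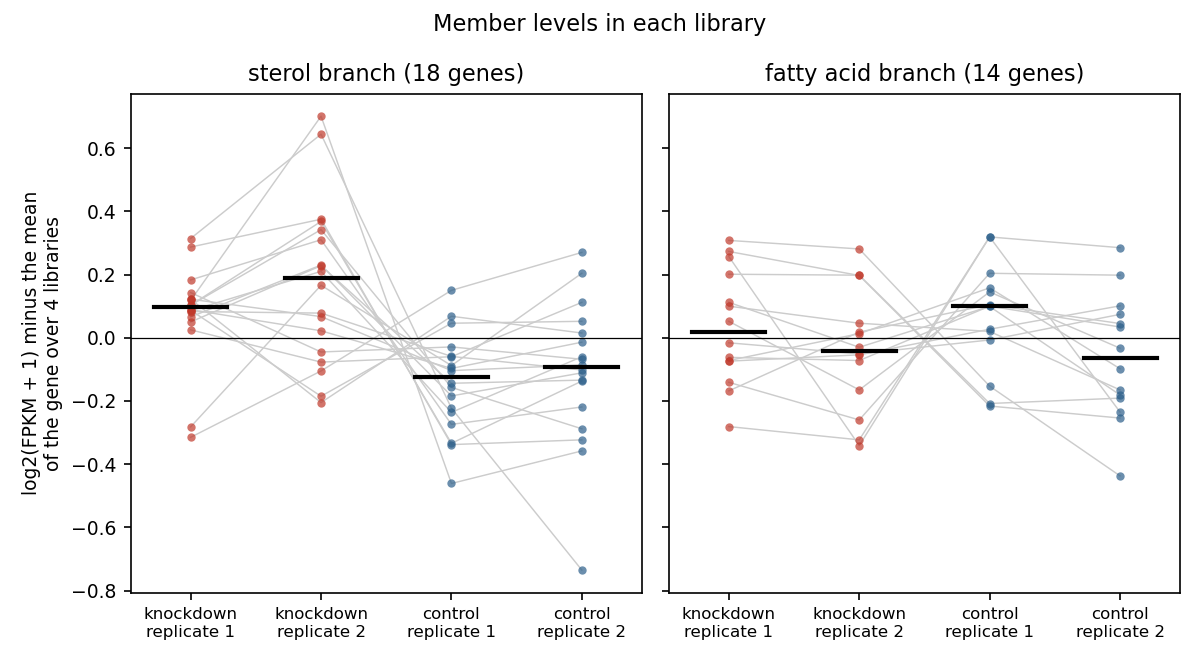
Levels of the 18 sterol and 14 fatty acid enzymes in each library, as log2(FPKM + 1) minus the mean of the gene over the 4 libraries; each point is a gene, grey lines join the points of a gene and black bars are medians. The sterol medians are 0.10 and 0.19 in the knockdown libraries and -0.12 and -0.09 in the control libraries, while the fatty acid medians are 0.02 and -0.04 in the knockdown libraries and 0.10 and -0.07 in the control libraries.

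GC content moved with these differences in part. Across the 37 members the log2 fold change had a Spearman correlation of -0.444 with the GC content of the longest listed transcript, and across 12399 tested genes of -0.217; genes share the same 4 libraries and are not independent replicates. HMGCS1, IDI1, STARD4 and ACSL4, with 40.2%, 41.1%, 34.2% and 37.4% GC, had log2 differences above 0, while SREBF1, TM7SF2 and FADS2, with 62.8%, 64.2% and 58.6% GC, had log2 differences below 0. Other members went against this trend, among them ACSL3 (38.1% GC, log2 difference -0.06), ELOVL5 (41.7%, -0.07), PMVK (59.5%, 0.28) and DHCR7 (58.3%, 0.44). The branches themselves had similar GC content, a median of 50.3% in the sterol and 49.4% in the fatty acid branch, but differed in transcript length, with medians of 2660 and 5200 bases. With the trend on GC content and length removed, the median was 0.23 for the sterol and -0.17 for the fatty acid branch, against 0.02 for all genes tested. The part of GC content in the single differences was not tested further. Under this setting the log2 difference was 0.80 for HMGCS1, 0.67 for IDI1, 0.57 for SQLE, 0.32 for STARD4, 0.40 for ACSL4 and -0.70 for SCD. It was 0.24 for ELOVL6, 0.40 for ACAT2 and -0.35 for TM7SF2, whose unadjusted limma p was no longer under 0.05. PMVK, FDPS, NSDHL and SREBF1 came under 0.05 instead.

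**Figure D4:**
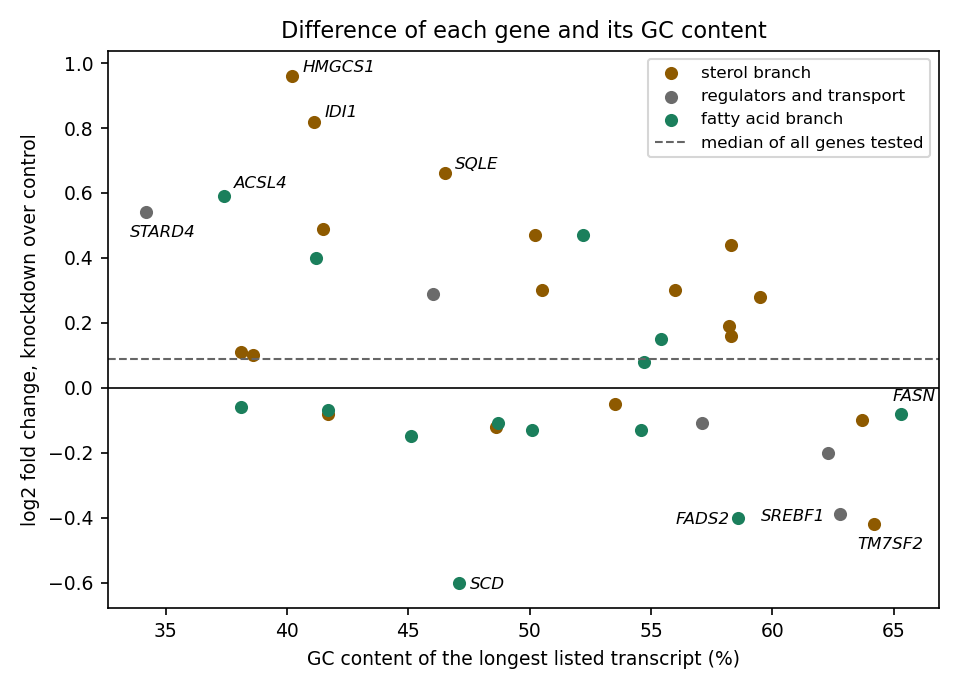
Log2 fold change of each gene, knockdown over control, against the GC content of its longest listed transcript in percent; each point is a gene, coloured by branch, and the dashed line is the median of all genes tested. HMGCS1, IDI1 and STARD4 lie above 0 at low GC content and SREBF1 and TM7SF2 below it at high GC content, while points on both sides of 0 are found at either end, with SCD, at 47.1% GC, as the lowest point.

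Related genes outside the list were read in the same fit, and none of them passed the adjusted threshold. Of 10 further genes of sterol and isoprenoid synthesis 6 lay above 0 and 3 above the median of all genes tested, with a median of 0.04 and none with an unadjusted p under 0.05. ERG28, a scaffold of sterol demethylation, had a log2 difference of 0.25. The prenyltransferase subunits FNTB and PGGT1B had log2 differences of 0.26 and -0.10.

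The genes of SREBP control and sterol handling gave small values. The 7 further genes of SREBP control had a median of 0.12, against 0.09 for all genes tested, and none had an unadjusted p under 0.05. All lay above 0, as did 61.4% of all genes tested, but over the alternative settings INSIG2 reached -0.35, MYLIP -0.06, MBTPS1 -0.03 and RNF139 -0.01. PAQR3 passed the filter on low values only through the knockdown group. MBTPS2, a protease that cuts SREBP, had 4.66 and 3.94 FPKM in the knockdown libraries, against 3.43 and 2.81 FPKM in the control libraries. The log2 differences of MBTPS1, the other protease of SREBP, PAQR3, a Golgi anchor of SCAP, and RNF139, a ubiquitin ligase, were 0.12, 0.44 and 0.11. Of 9 tested genes of sterol trafficking and the LXR system 7 lay above 0 and 5 above the median of all genes tested, with a median of 0.17 and none with an unadjusted p under 0.05. NPC2 and NPC1, which export cholesterol from lysosomes, SOAT1, which esterifies it, and LIPA, which frees it from esters, had log2 differences of 0.30, 0.22, 0.25 and 0.23. ABCA1 and ABCG1, the sterol exporters under LXR, did not exceed 0.07 FPKM.

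Other fatty acid and barrier lipid genes again included members on both sides of 0. Of 12 tested genes of fatty acid synthesis outside the list 2 were higher and 1 lower at an unadjusted p under 0.05 (16.7% and 8.33%, near the 14.8% and 8.00% of all genes tested), with a median of 0.09. OXSM, a synthase of the mitochondrial pathway, had 4.51 and 5.38 FPKM in the knockdown libraries, against 1.88 and 2.34 FPKM in the control libraries (log2 difference 0.93, SE 0.151, limma adjusted p = 0.0853). SCD5, the other human stearoyl-CoA desaturase, had 3.63 and 3.53 FPKM in the knockdown libraries, against 5.94 and 6.11 FPKM in the control libraries (log2 difference -0.62, SE 0.110, adjusted p = 0.0939), close to the -0.60 of SCD. ACSL5 had 10.95 and 11.54 FPKM in the knockdown libraries, against 7.51 and 7.89 FPKM in the control libraries (log2 difference 0.49, adjusted p = 0.111), and MID1IP1, an activator of acetyl-CoA carboxylase, had a log2 difference of 0.37. Of 13 genes of epidermal barrier lipids only 6 were tested, with a median of 0.03. STS, the sulfatase that acts on cholesterol sulfate, had 5.73 and 5.85 FPKM in the knockdown libraries, against 9.55 and 8.47 FPKM in the control libraries (log2 difference -0.56, SE 0.116, adjusted p = 0.107). CERS2 and SPTLC2, enzymes of ceramide synthesis, and UGCG, which makes glucosylceramide, had log2 differences of 0.15, 0.15 and 0.10. CERS3 and CYP4F22, needed for the ultra-long ceramides of the barrier, were listed at 0 in all 4 libraries.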

How the data were processed

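RNA-seq was analysed from 4 HaCaT libraries, 2 knockdown and 2 control. Per the labels' protocols, oligo(dT) beads selected mRNA out of 5 µg total RNA, second strands carried dUTP and were digested, and paired reads had 150 bases. The submitters' processing notes list HISAT2 2.0.4, StringTie 1.3.4d, cutadapt 1.9, edgeR and DESeq2 without roles. Genome build, annotation and strand setting: not given in the sources used here. The authors deposited FPKM values with 2 decimals, relative to each library's total. The authors' deposited table also holds a ratio (fold) column and its log2, which were not used for any result. There were 0 columns without a sample. No counts were given and depth is unknown: at best 26.7% to 29.6% of low values of genes with 1 transcript came within 0.1 of a whole read, against a median of 18.1% to 18.3% over the depths tried.

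Values were transformed as log2(FPKM + 1). Genes whose mean reached 1 FPKM in either group (12411) entered a two-sided limma test (version 3.58.1, R 4.3.3) with group as its term and a mean-variance trend but no robust step; p-values were Benjamini-Hochberg adjusted, with a threshold of 0.05. The fit was checked on simulated data with independent errors around the mean of each gene. It recovered 80.6% of 2-fold and 99.6% of 4-fold changes, and 7.96% of its calls were false. These draws held no batch or normalization differences, so the check says nothing about those. The changed genes were drawn only from those with a mean log2(FPKM + 1) above 2, and changes were added on that scale. The recovery thus says nothing about lower genes such as TM7SF2, FADS2, ACACB and HSD17B7. Fold changes on this scale understate the change of low genes, and each fold in the text divides mean FPKM of the groups. For 2 against 2 libraries the smallest p of an exact permutation test is 0.333, and every p here reflects how far libraries of a group lie apart, a spread that may be technical. Positions, transcript length, GC content and exon overlaps came from GENCODE 29, which held 58552 of 58825 gene IDs, and promoter sequences from RefSeq (GRCh38.p14); 6 members share exons on the same strand and 15 on the other strand with another gene. The members and all gene lists were chosen with earlier results of these data known. Values in every library are given for members with an unadjusted p under 0.05, the highest member of each branch, and SQLE, HMGCS1, FASN, SCD, ACACA, SREBF1, SREBF2, INSIG1 and WFDC21P. Of the other lists, up to 4 genes with the smallest p were named. FDPS, FDFT1, SCAP, FADS1, INSIG2, MYLIP, ABCA1, ABCG1, CERS3 and CYP4F22 were added after their values were seen. Some related genes are not reported here and were left out of these lists.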

Additional observations from a re-analysis of the deposited data

How the results depend on the processing

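No member passed under any of the 13 alternative settings, where 8 to 16 members had an unadjusted p under 0.05. Over all genes, the calls were 0 higher and 0 lower with any library left out, with the replicate block or with no filter on low values. They were 31 and 27 with a filter at 5 FPKM, 17 and 40 under quantile normalization, 8 and 19 with GC and length removed, and 8 and 9 without the limma trend, against 14 and 17. With the filter at 5 FPKM only 30 of the 37 members were tested. No member turned direction whose unadjusted p was under 0.05. The labels do not say whether libraries with the same replicate number were handled together. Replicate 1 minus replicate 2 correlated at 0.124 between the groups across genes and at 0.372 over the 37 members. With the block 2495 genes were higher and 1296 lower at an unadjusted limma p under 0.05, against 1834 and 993 without it. For the members these were 16 with the block and 13 without it. Whether the replicate numbers stand for a shared batch was not tested. The sterol median was 0.30 with the filter at 5 FPKM, where only 13 of the 18 sterol enzymes were tested. It was 0.15 with median centring, 0.15 with quantile normalization, and 0.20 to 0.26 with a library left out. The fatty acid median was -0.20 with quantile normalization, -0.17 with GC and length removed and -0.13 to 0.02 with a library left out. For all genes tested, the median was 0.14 with the filter at 5 FPKM and 0.01 with median centring, against 0.09 in the main fit. It was 0.02 with quantile normalization and with GC and length removed, and 0.05 to 0.12 with a library left out. The difference of the branch medians was 0.17 to 0.37 with a library left out. MSMO1 turned to -0.00076 with quantile normalization and to -0.04 with GC and length removed, and SC5D to -0.06 with GC and length removed. With a library left out, MVD ranged between -0.23 and 0.04, FDFT1 between -0.34 and 0.11, HSD17B7 between -0.25 and 0.08, EBP between -0.14 and 0.03, INSIG1 between -0.15 and 0.74, ACACB between -0.06 and 0.22, FASN between -0.38 and 0.21 and ACSL3 between -0.19 and 0.07. The cause of these turns was not tested. Depth being unknown, no counting error can be given for the low members TM7SF2, FADS2 and ACACB.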
